A study of Homo sapiens with 15 samples.

Results

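The genes followed serve neutral lipid storage and lipolysis in A549 cells, a human lung adenocarcinoma line. They are PLIN2, PLIN3, HILPDA, G0S2, ANGPTL4, PNPLA2, ABHD5, LIPE, DGAT1 and DGAT2. They were chosen by symbol for their roles, with earlier results of these data known. Each was read from the probe set that names it alone and has the highest mean over the 15 arrays. They are 10 of 18377 genes with a named probe set, and all 10 were among the 16005 genes bright enough to test. The arrays measured total RNA of 15 cultures in 5 groups of 3 biological replicates. One group was normoxic and received vehicle (0.1% DMSO). The other 4 groups were hypoxic and received vehicle, BB2-125, BB2-162 or BB2-282, with each compound at 10 µM in the same 0.1% DMSO. Vehicle or compound was present for 6 h before low oxygen was set up in a sealed gas-generating pouch, and for the 42 h in the pouch. No array held a compound in normoxia, so a general effect of a compound and an effect on the hypoxic response cannot be told apart.

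Cells store fatty acids as triglyceride in lipid droplets, which bud from the endoplasmic reticulum and carry a coat of perilipins. PLIN2 is the general droplet coat protein of non-adipose cells, and PLIN3 is a relative that moves between cytosol and young droplets. DGAT1 and DGAT2 add the last fatty acid of triglyceride. PNPLA2 (adipose triglyceride lipase) removes the first fatty acid again, with ABHD5 as its coactivator, and LIPE (hormone-sensitive lipase) acts next on diglyceride. HILPDA and G0S2 are small proteins that inhibit PNPLA2, while ANGPTL4 is secreted and inhibits lipoprotein lipase outside the cell. PLIN2, HILPDA and ANGPTL4 are known targets of the hypoxia-inducible factors (HIF), and hypoxic cells are known to accumulate droplets.

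The values are log2 of the deposited array intensities, so a difference of 1 is a doubling. A log2 level ranks the groups within a gene and does not compare genes. Changes are given with the standard error of the limma fit from 3 arrays per group. A call means an adjusted p under 0.05, with the adjustment made over all genes tested. Nothing beyond the label states how independent the replicate cultures were, so p-values measure the spread between these arrays. The array median ran from 74.91 to 84.6 on the linear scale. It was highest on BB2-162 replicates 2 (84.06) and 3 (84.6). The next highest was 80.74 on BB2-282 replicate 1, and BB2-162 replicate 1 had 79.49. VEGFA and SLC2A1, long-known HIF targets, rose in hypoxic vehicle by 3.66 ± 0.11 and 2.13 ± 0.11. Of 12 epithelial and A549 marker genes, 8 lay above the array median on all 15 arrays, and EPCAM, NKX2-1, SFTPC and GCLM did not. The mean of these 12 lay between 10.02 and 10.11 in normoxia, 8.96 and 9.10 in hypoxic vehicle, 9.34 and 9.39 with BB2-125, 8.87 and 9.19 with BB2-162, and 8.83 and 8.89 with BB2-282. The largest falls of the 12 were in AKR1B10 and GCLM. AKR1B10, an aldo-keto reductase gene, had means of 12.73 in normoxia and 9.03 in hypoxic vehicle, and GCLM, of glutathione synthesis, 8.75 and 5.31. KRT19 went the other way, from 8.99 to 10.41, and AKR1C1, NKX2-1 and SFTPC were slightly higher in hypoxic vehicle. The fall of the mean was thus not shared by all 12. The part of these shifts in the results for the 10 genes was not tested. None of the 5 leukocyte and 5 endothelial markers on the array exceeded the median on any array. Of 6 fibroblast markers COL1A1 exceeded it on all 15 arrays, COL3A1 on 14 and COL1A2 on 13. Of 6 adipocyte markers PLIN1 exceeded it on all 15 and CIDEC on 5. The mean of the adipocyte markers lay between 5.28 and 5.61 on every array. Within it CIDEC went from 7.07 in normoxia to 6.08 in hypoxic vehicle, and PLIN1 from 6.48 to 6.77. The array of BB2-162 replicate 1 deviated most from its group mean (root mean square 0.221 over all genes, against 0.0942 to 0.163 on the others), so results for BB2-162 are given with and without it. Leaving it out keeps BB2-162 replicates 2 and 3, the arrays with the highest medians, so the results without it are not the safer ones.

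Hypoxia without compound raised the RNA of the droplet coat gene PLIN2, of the lipase inhibitor genes HILPDA and ANGPTL4 and, by far less, of the lipase gene PNPLA2. It lowered DGAT1 and ABHD5. In these bulk cultures, fewer expressing cells and less RNA per cell cannot be told apart. Of the 10 genes, 6 were called, beside 57.5% of all genes tested. These were 4 higher, beside 28.2% of all genes, and 2 lower, beside 29.4%. That share is near the background. Of the 10, 3 were called at least 2-fold higher, beside 5.22% of all genes. These were the known HIF targets PLIN2, HILPDA and ANGPTL4. The genes were chosen with earlier results of these data known, so this count is a description and not a test of excess. ANGPTL4 ranked 1, HILPDA 9 and PLIN2 19 from the highest of 16005 changes. The median change over the 10 genes was 0.19, beside 0.09 over all genes tested.

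**Figure D1:**
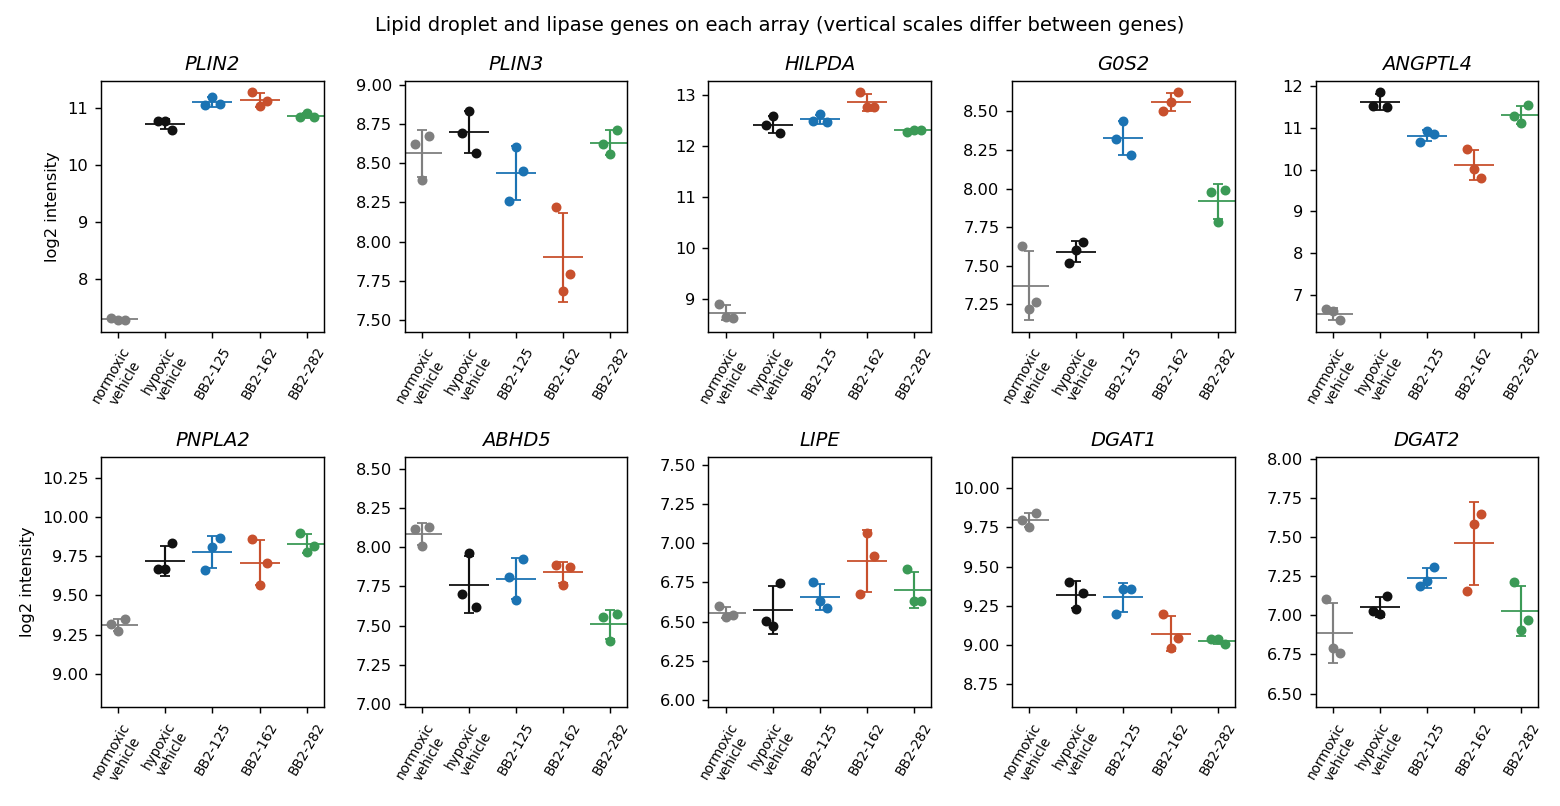
Log2 intensity of the 10 genes on each array (vertical axis, scale differing between genes) in normoxic vehicle, hypoxic vehicle and hypoxia with BB2-125, BB2-162 or BB2-282. Points are arrays, horizontal lines are the means of 3 arrays and bars are 1 SD. ANGPTL4, HILPDA and PLIN2 stepped up in every hypoxic group, ANGPTL4 was lower with BB2-125 and BB2-162 than in hypoxic vehicle, and G0S2 was higher.

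PLIN2 lay at 7.31, 7.28 and 7.28 in the 3 normoxic cultures and at 10.76, 10.78 and 10.62 in hypoxic vehicle. The groups did not overlap, and the rise was 3.43 ± 0.09, or 10.8-fold (adjusted p = 3.04e-15). With BB2-125 its levels were 11.05, 11.20 and 11.07, and with BB2-162 they were 11.27, 11.04 and 11.13. Every one of these 6 arrays lay above the 3 of hypoxic vehicle. PLIN2 thus rose further by 0.38 ± 0.09 with BB2-125 (adjusted p = 0.00377) and by 0.43 ± 0.09 with BB2-162 (adjusted p = 0.00169), and by 0.36 without BB2-162 replicate 1. With BB2-282 the levels were 10.85, 10.92 and 10.84, above hypoxic vehicle on all 3 arrays, yet the difference of 0.15 ± 0.09 did not pass (adjusted p = 0.366, 95% interval -0.05 to 0.34). From the top the order was BB2-162, BB2-125, BB2-282, hypoxic vehicle and normoxic vehicle, and only the step from hypoxic to normoxic vehicle passed between neighbours.

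PLIN3 showed none of this. Its levels were 8.62, 8.39 and 8.68 in normoxia and 8.70, 8.83 and 8.57 in hypoxic vehicle, and the groups overlapped (0.13 ± 0.13, adjusted p = 0.395, 95% interval -0.15 to 0.41). With BB2-162 it fell to 8.22, 7.68 and 7.79, below every array of hypoxic vehicle and also of normoxia. The fall from hypoxic vehicle was -0.80 ± 0.13, or 1.74-fold (adjusted p = 0.000157), and was -0.96 without BB2-162 replicate 1, the highest of the 3. With BB2-125 the levels were 8.26, 8.60 and 8.45 (-0.26 ± 0.13, adjusted p = 0.166), and with BB2-282 they were 8.62, 8.56 and 8.71 (-0.07 ± 0.13, adjusted p = 0.839). Both groups overlapped hypoxic vehicle. The coat genes PLIN2 and PLIN3 therefore moved in opposite directions with BB2-162, each beyond the spread between arrays.

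The promoters of the coat genes were searched for ACGTG and GCGTG, the core letters bound by HIF, on both strands of the 250 bases before each RefSeq start (GRCh38.p14). Of 35116 promoters of this length 43.2% hold at least one of these words, 18.5% hold ACGTG and 32.2% hold GCGTG. The stretches of PLIN2 (chr9:19127493-19127742, minus strand) and PLIN3 (chr19:4867668-4867917, minus strand) are shown because the first gene rose 10.8-fold in hypoxia and the other did not pass, with the matches in capitals on whichever strand they lie.
PLIN2: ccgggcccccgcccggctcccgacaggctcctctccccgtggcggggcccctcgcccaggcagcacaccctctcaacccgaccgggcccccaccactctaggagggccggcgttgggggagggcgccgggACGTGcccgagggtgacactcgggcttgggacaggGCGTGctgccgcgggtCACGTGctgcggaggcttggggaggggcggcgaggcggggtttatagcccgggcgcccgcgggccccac
PLIN3: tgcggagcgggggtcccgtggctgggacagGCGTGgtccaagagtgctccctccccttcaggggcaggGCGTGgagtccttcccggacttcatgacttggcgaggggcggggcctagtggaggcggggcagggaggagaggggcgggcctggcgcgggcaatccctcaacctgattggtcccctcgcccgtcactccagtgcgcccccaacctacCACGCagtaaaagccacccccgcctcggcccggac
The PLIN2 stretch holds 3 ACGTG words, of which 2 overlap on opposite strands as CACGTG, and 1 GCGTG. The joined word CACGTG occurs in 6.34% of all promoters of this length. The PLIN3 stretch holds 3 GCGTG words and no ACGTG. A match is a run of letters, and binding was not measured.

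HILPDA, the hypoxia-responsive inhibitor of PNPLA2, lay at 8.89, 8.64 and 8.63 in normoxia and at 12.41, 12.58 and 12.25 in hypoxic vehicle. The rise was 3.69 ± 0.11, or 12.9-fold (adjusted p = 9.7e-15). With BB2-162 it reached 13.04, 12.75 and 12.76, above all other arrays of the series, a further rise of 0.44 ± 0.11 (adjusted p = 0.00526) that was 0.34 without BB2-162 replicate 1 (adjusted p = 0.0185). The levels with BB2-125 were 12.47, 12.62 and 12.46, and those with BB2-282 were 12.27, 12.31 and 12.31. Both overlapped hypoxic vehicle, with differences of 0.11 ± 0.11 (adjusted p = 0.558) and -0.11 ± 0.11 (adjusted p = 0.623). The sign of the BB2-282 difference turned after quantile normalisation (0.05).

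G0S2, the other inhibitor of PNPLA2 and the gene first named for the switch from resting to dividing cells, did not follow HILPDA. Its levels were 7.63, 7.22 and 7.26 in normoxia and 7.52, 7.60 and 7.65 in hypoxic vehicle, and the groups overlapped through normoxic replicate 1. The difference was 0.22 ± 0.11 (adjusted p = 0.0984). It passed after quantile normalisation (adjusted p = 0.0449) and without normoxic vehicle replicate 1 (0.35, adjusted p = 0.0104). All compounds gave levels above the highest hypoxic vehicle array. They were 8.32, 8.44 and 8.22 with BB2-125, 8.50, 8.56 and 8.62 with BB2-162, and 7.98, 7.79 and 7.99 with BB2-282. G0S2 rose by 0.74 ± 0.11 with BB2-125 (adjusted p = 5.41e-05) and by 0.97 ± 0.11, or 1.96-fold, with BB2-162 (adjusted p = 2.97e-06; 1.0 without BB2-162 replicate 1). In rank from the highest change it stood at 535 and 137 of 16005. The BB2-282 difference of 0.33 ± 0.11 did not pass (adjusted p = 0.0608). It passed with a stricter filter on dim genes (adjusted p = 0.0485), with 16 added before log2 (0.0489), in a fit of those 2 groups alone (0.0408), and without normoxic vehicle replicate 1 (0.0303) or BB2-162 replicate 1 (0.0473).

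ANGPTL4, the secreted inhibitor of lipoprotein lipase, showed the largest hypoxic rise of all genes tested. Its levels were 6.66, 6.60 and 6.39 in normoxia and 11.52, 11.86 and 11.51 in hypoxic vehicle, a rise of 5.08 ± 0.16, or 33.9-fold (adjusted p = 1.29e-14). It was also the one gene of the 10 to fall by over 2-fold with a compound. With BB2-162 the levels were 10.51, 10.03 and 9.81, below every array of the other hypoxic groups. The fall from hypoxic vehicle was -1.51 ± 0.16, or 2.86-fold (adjusted p = 1.05e-06), ranked 95 from the lowest of 16005 (3.03% of all genes were called lower by at least 2-fold), and was -1.71 without BB2-162 replicate 1. With BB2-125 the levels were 10.67, 10.92 and 10.86, a fall of -0.81 ± 0.16, or 1.76-fold (adjusted p = 0.000619). With BB2-282 they were 11.29, 11.12 and 11.55, which overlapped hypoxic vehicle (-0.31 ± 0.16, adjusted p = 0.237, 95% interval -0.64 to 0.02).

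ANGPTL4 nevertheless stayed far above normoxia in every hypoxic group. It remained higher by 4.27 ± 0.16 with BB2-125, by 3.57 ± 0.16 (11.8-fold) with BB2-162 and by 4.77 ± 0.16 with BB2-282. In order from the top stood hypoxic vehicle, BB2-282, BB2-125, BB2-162 and normoxic vehicle, and each step but the first passed. PLIN2 and HILPDA, which also rose in hypoxia, were not called lower with any compound, though HILPDA with BB2-282 differed from hypoxic vehicle by -0.11 (95% interval -0.35 to 0.12).

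The 250 bases before the starts of ANGPTL4 (chr19:8363905-8364154, plus strand) and G0S2 (chr1:209675162-209675411, plus strand) are shown because these genes moved most with the compounds, and in opposite directions. Capitals again mark ACGTG and GCGTG, which read CACGT and CACGC where they lie on the other strand.
ANGPTL4: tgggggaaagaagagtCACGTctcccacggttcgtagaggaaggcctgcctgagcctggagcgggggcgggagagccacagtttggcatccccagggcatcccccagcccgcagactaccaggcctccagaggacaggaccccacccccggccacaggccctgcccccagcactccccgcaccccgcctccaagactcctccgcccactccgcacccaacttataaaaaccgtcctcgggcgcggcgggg
G0S2: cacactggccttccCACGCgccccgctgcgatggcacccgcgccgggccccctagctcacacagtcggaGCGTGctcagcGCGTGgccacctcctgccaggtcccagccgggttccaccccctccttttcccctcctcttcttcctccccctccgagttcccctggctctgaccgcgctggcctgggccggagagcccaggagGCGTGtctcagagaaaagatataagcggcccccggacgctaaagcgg
The ANGPTL4 stretch holds 1 ACGTG, on the minus strand, 230 to 234 bases before the start. The G0S2 stretch holds 4 GCGTG words and no ACGTG. Promoter entries were found for 7 of the 10 genes. HILPDA, DGAT1 and DGAT2 were not analysed here for promoter letters. In the stretches of PNPLA2 and LIPE neither word occurred, and ABHD5 had 1 GCGTG in 2 of its 3 entries.

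The lipase gene PNPLA2 rose in hypoxia by far less than HILPDA, its inhibitor gene. PNPLA2 lay at 9.32, 9.27 and 9.35 in normoxia and at 9.67, 9.67 and 9.83 in hypoxic vehicle, a rise of 0.41 ± 0.10, or 1.33-fold (adjusted p = 0.00162), with no overlap. No compound moved it past the test. Its differences from hypoxic vehicle were 0.06 ± 0.10 with BB2-125 (95% interval -0.15 to 0.26), -0.01 ± 0.10 with BB2-162 (-0.22 to 0.19) and 0.11 ± 0.10 with BB2-282 (-0.10 to 0.31). In all 3 compound groups PNPLA2 stayed above normoxia, by 0.46, 0.40 and 0.52 in the same order, each called.

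ABHD5, the coactivator of PNPLA2, went the other way. Its levels were 8.12, 8.004 and 8.13 in normoxia and 7.70, 7.97 and 7.62 in hypoxic vehicle, a fall of -0.32 ± 0.11, or 1.25-fold (adjusted p = 0.0148). That call ended after quantile normalisation (adjusted p = 0.0776) and without hypoxic vehicle replicate 1 (0.0525) or replicate 3 (0.0809). With BB2-282 its levels of 7.55, 7.40 and 7.57 were the lowest of the series. They lay below hypoxic vehicle without passing (-0.25 ± 0.11, adjusted p = 0.14) and below normoxia by -0.57 ± 0.11 (adjusted p = 0.000121). BB2-125 (7.81, 7.66 and 7.93) and BB2-162 (7.88, 7.76 and 7.87) overlapped hypoxic vehicle, with differences of 0.04 and 0.08.

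LIPE, the diglyceride lipase, lay at 6.60, 6.53 and 6.54 in normoxia and at 6.50, 6.47 and 6.75 in hypoxic vehicle (0.02 ± 0.11, adjusted p = 0.905, 95% interval -0.22 to 0.25). With BB2-162 the levels were 6.68, 7.06 and 6.92, of which replicate 1 lay within the hypoxic vehicle range. The rise of 0.31 ± 0.11 passed (adjusted p = 0.036), and it was 0.42 without replicate 1 (adjusted p = 0.00518). The call ended after median centring of the arrays (adjusted p = 0.0782), in a fit of the 2 groups alone (0.128), and without hypoxic vehicle replicate 1 (0.115), hypoxic vehicle replicate 2 (0.134), BB2-162 replicate 2 (0.164) or BB2-162 replicate 3 (0.0959). BB2-125 (6.75, 6.63 and 6.59) and BB2-282 (6.84, 6.63 and 6.63) did not pass against hypoxic vehicle, with differences of 0.08 ± 0.11 and 0.13 ± 0.11. The LIPE group means, 94.2 to 118 on the linear scale, lay little above the array medians of 74.91 to 84.6. The means of the endothelial and leukocyte markers, which are dim, were also higher with BB2-162. The endothelial mean lay between 5.07 and 5.30 in hypoxic vehicle and 5.34 and 5.56 with BB2-162. The leukocyte mean lay between 4.77 and 4.92 and between 5.05 and 5.16. With BB2-125 the leukocyte mean was also above hypoxic vehicle (4.96 to 5.04). The fibroblast mean was higher with BB2-162 (5.61 to 5.75, against 5.42 to 5.54 in hypoxic vehicle). The adipocyte mean with BB2-162 (5.39 to 5.61) overlapped hypoxic vehicle (5.28 to 5.45). The part of such a shift in the LIPE rise was not tested.

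The acyltransferase genes of the last step of triglyceride synthesis parted. DGAT1 fell in hypoxia from 9.79, 9.75 and 9.84 to 9.40, 9.23 and 9.33, a change of -0.48 ± 0.09, or 1.39-fold (adjusted p = 0.000217), with no overlap. DGAT2 lay at 7.10, 6.79 and 6.76 in normoxia and at 7.02, 7.01 and 7.12 in hypoxic vehicle, and the groups overlapped (0.17 ± 0.13, adjusted p = 0.276, 95% interval -0.10 to 0.44). DGAT1 has another probe set on the array, whose values were identical on all 15 arrays, so it adds no further measurement.

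With BB2-162 the acyltransferases again moved apart. DGAT2 reached 7.15, 7.58 and 7.64, a rise of 0.41 ± 0.13 (adjusted p = 0.0206), which was 0.56 without replicate 1. The call ended in a fit of the 2 groups alone (adjusted p = 0.0672) and without hypoxic vehicle replicate 1 (0.0598), hypoxic vehicle replicate 2 (0.0644), BB2-162 replicate 2 (0.0835) or BB2-162 replicate 3 (0.105). DGAT1 reached 9.20, 8.98 and 9.04, a fall of -0.25 ± 0.09 (adjusted p = 0.0427) that was -0.31 without replicate 1 (adjusted p = 0.0126). With BB2-282 DGAT1 lay at 9.03, 9.04 and 9.004, below all arrays of hypoxic vehicle, a fall of -0.30 ± 0.09 (adjusted p = 0.0398). BB2-125 left it at 9.20, 9.36 and 9.36, a difference of -0.02 ± 0.09 (95% interval -0.21 to 0.18). DGAT2 with BB2-125 (7.19, 7.22 and 7.31) and with BB2-282 (7.21, 6.91 and 6.97) did not pass, with differences of 0.19 ± 0.13 and -0.02 ± 0.13. The part of the shift of dim markers with BB2-162 in the DGAT2 rise was not tested either.

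Both DGAT1 calls against hypoxic vehicle were close to the threshold. The BB2-162 call ended after quantile normalisation (adjusted p = 0.199) and in a fit of the 2 groups alone (0.157). It also ended without normoxic vehicle replicate 3 (0.0516), hypoxic vehicle replicate 1 (0.144) or 3 (0.0771), BB2-125 replicate 2 (0.0511) or 3 (0.0529), BB2-162 replicate 2 (0.148) or 3 (0.108), or BB2-282 replicate 1 (0.054), 2 (0.056) or 3 (0.0536). The BB2-282 call ended after quantile normalisation (0.0632) and without normoxic vehicle replicate 3 (0.0503), hypoxic vehicle replicate 1 (0.166) or 3 (0.0762), BB2-125 replicate 3 (0.0525), or BB2-282 replicate 1 (0.0971), 2 (0.104) or 3 (0.111).

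**Figure D2:**
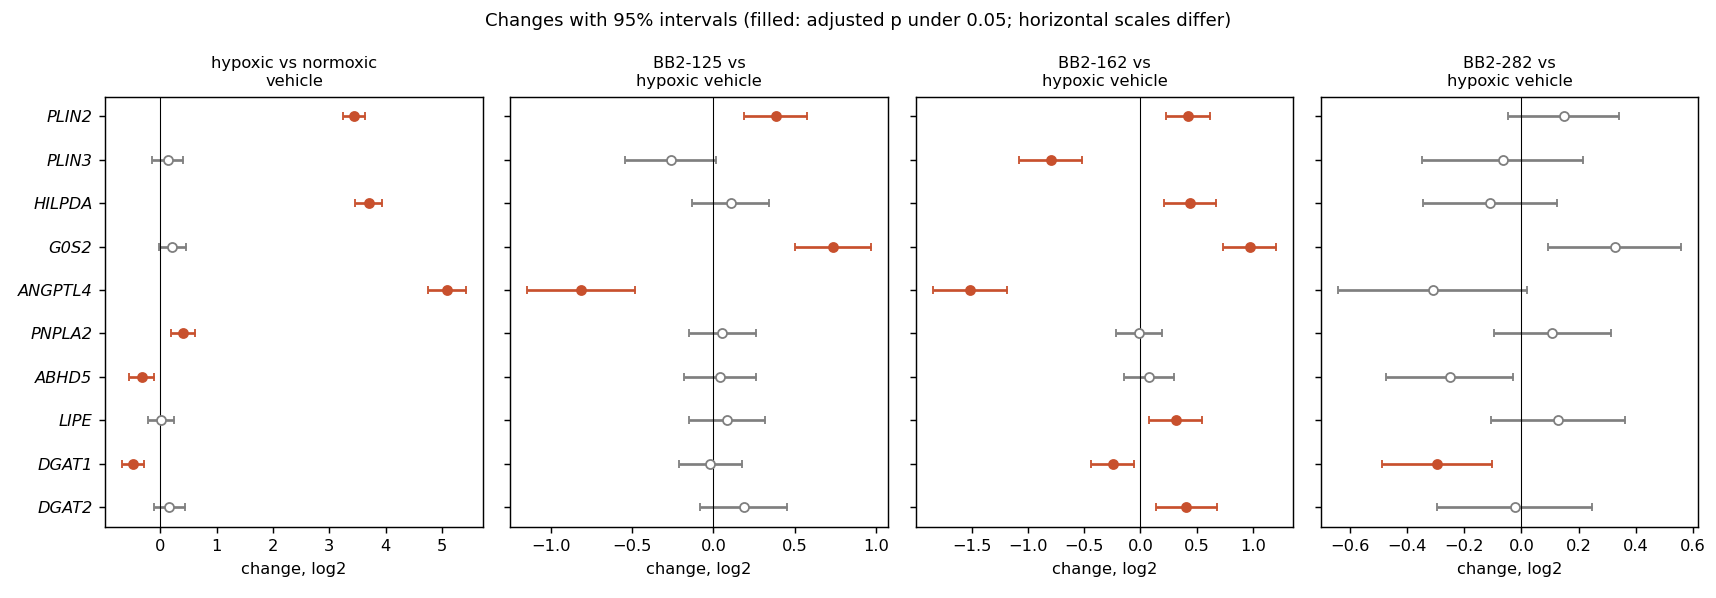
Log2 change of the 10 genes (horizontal axis, scale differing between panels) for hypoxic against normoxic vehicle and for each compound against hypoxic vehicle. Points are limma estimates from 3 arrays per group, bars are 95% intervals and filled points passed an adjusted p of 0.05. Hypoxia gave 6 filled points, BB2-125 gave 3, BB2-162 gave 8 and BB2-282 gave 1.

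The calls against hypoxic vehicle were also counted over the 10 genes for each compound. BB2-125 called 3 beside 28.4% of all genes tested, namely PLIN2 and G0S2 higher (13.3% of all genes were) and ANGPTL4 lower (15% were). BB2-162 called 8 beside 36.1% of all genes (5780 of 16005). Without its replicate 1 it called 8 beside more of all genes (7698 of 16005). With every array, G0S2, HILPDA, PLIN2, DGAT2 and LIPE were higher, beside 15.7% of all genes. ANGPTL4, PLIN3 and DGAT1 were lower, beside 20.4%. That background split moves with the scaling: 43.4% of the genes called with BB2-162 were higher, and 28.2% after median centring. BB2-282 called 1, DGAT1, as lower, beside 13.6% of all genes, of which 5.65% were higher and 7.94% lower. The shares for BB2-125 and BB2-282 are near the background. As the genes were chosen with earlier results known, the BB2-162 count is likewise a description and not a test of excess. The median size of change, without its sign, was 0.15, 0.42 and 0.14 over the 10 genes, and 0.18, 0.24 and 0.13 over all genes tested. With BB2-162 the count fell to 5 in a fit of the 2 groups alone, and also without hypoxic vehicle replicate 1, BB2-162 replicate 2 or BB2-162 replicate 3. With BB2-282 it was 0 without normoxic vehicle replicate 3, hypoxic vehicle replicate 1 or 3, BB2-125 replicate 3, or any one BB2-282 replicate, and 2 without normoxic vehicle replicate 1 or BB2-162 replicate 1.

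Each compound group was also compared with normoxic vehicle, which shows how the genes stood after hypoxia and compound together. These comparisons share the normoxic arrays with one another. BB2-125 called 8 of 10 beside 62% of all genes, 6 higher (beside 31.5%) and 2 lower (beside 30.5%). BB2-162 called all 10 beside 76.8%, 7 higher (beside 42.4%) and 3 lower (beside 34.4%). Without its replicate 1 it again called all 10, beside 12662 of 16005 genes (12296 with every array). BB2-282 called 7 beside 64.8%, 5 higher (beside 33.4%) and 2 lower (beside 31.4%). PLIN2 stood 3.82, 3.86 and 3.58 above normoxia with BB2-125, BB2-162 and BB2-282, HILPDA 3.80, 4.13 and 3.58, and G0S2 0.96, 1.19 and 0.55. DGAT1 stood below normoxia by -0.49, -0.72 and -0.77. The lower calls were DGAT1 and ABHD5 with every compound, and PLIN3 (-0.66 ± 0.13, adjusted p = 0.000247) with BB2-162.

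Some of these calls against normoxia rested on single arrays or on the scaling. ABHD5 with BB2-125 (-0.28 ± 0.11, adjusted p = 0.0275) was lost after quantile normalisation (0.243) and without normoxic vehicle replicate 1 (0.0665) or 3 (0.0794) or BB2-125 replicate 1 (0.0503) or 2 (0.126). ABHD5 with BB2-162 (-0.24 ± 0.11, adjusted p = 0.0439) was lost after quantile normalisation (0.537), in a fit of the 2 groups alone (0.0765) and without normoxic vehicle replicate 1 (0.0984) or 3 (0.111), hypoxic vehicle replicate 1 (0.0501), BB2-125 replicate 1 (0.0501), BB2-162 replicate 2 (0.128) or 3 (0.061), or BB2-282 replicate 1 (0.0523) or 3 (0.0512). DGAT2 with BB2-125 (0.35 ± 0.13, adjusted p = 0.0249) was lost without normoxic vehicle replicate 2 (0.0895) or 3 (0.1) or BB2-125 replicate 3 (0.0816). LIPE with BB2-162 (0.33 ± 0.11, adjusted p = 0.0126) was lost after median centring (0.0609) and without BB2-162 replicate 2 (0.0747).

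The compounds were given at the same dose and for the same time, and were also set against each other. With a single dose of each, a difference in kind of effect and a difference in effective dose cannot be told apart. There were 3 pairs, and adjusting the p-values over all 3 together changed no call of the 10 genes. BB2-125 and BB2-162 differed in 3 of 10 genes beside 26.1% of all genes, BB2-125 and BB2-282 in 4 beside 36.3%, and BB2-162 and BB2-282 in 7 beside 35.8%. The first count was 5 without BB2-162 replicate 1, where the calls over all genes also rose, from 4182 to 6208 of 16005. The second was 2 without BB2-125 replicate 1 or 3 or BB2-282 replicate 1 or 2, and 1 without BB2-282 replicate 3. ANGPTL4 was the gene that differed in every pair. It was higher with BB2-125 than with BB2-162 by 0.70 ± 0.16 (adjusted p = 0.00307) and lower with BB2-125 than with BB2-282 by -0.50 ± 0.16 (adjusted p = 0.017). Between BB2-162 and BB2-282 the difference was -1.20 ± 0.16, or 2.30-fold (adjusted p = 9.95e-06). The call between BB2-125 and BB2-282 ended without BB2-125 replicate 1 (adjusted p = 0.0772) or BB2-282 replicate 3 (0.102). Without BB2-162 replicate 1 the other differences were 0.90 and -1.40.

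PLIN3 separated BB2-162 from both other compounds. BB2-125 exceeded it by 0.54 ± 0.13 (adjusted p = 0.00625), and BB2-162 lay below BB2-282 by -0.73 ± 0.13 (adjusted p = 0.000297). HILPDA was higher with BB2-162 than with BB2-282 by 0.55 ± 0.11 (adjusted p = 0.000769) and than with BB2-125 by 0.34 (-0.34 ± 0.11 as BB2-125 minus BB2-162, adjusted p = 0.0341). The latter call ended after median centring (adjusted p = 0.092), in a fit of the 2 groups alone (0.0915), and without BB2-125 replicate 1 (0.102), BB2-125 replicate 3 (0.101) or BB2-162 replicate 1 (0.0963). G0S2 was lower with BB2-282 than with BB2-125 by 0.41 ± 0.11 (adjusted p = 0.00646) and than with BB2-162 by 0.64 ± 0.11 (adjusted p = 0.000174). Between BB2-125 and BB2-162 G0S2 did not pass, at -0.23 ± 0.11 (adjusted p = 0.124, 95% interval -0.47 to 0.00), although the arrays did not overlap.

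PLIN2 with BB2-125 and BB2-162 differed by -0.04 ± 0.09 (adjusted p = 0.763, 95% interval -0.24 to 0.15), and the sign turned after median centring (0.01) and without BB2-162 replicate 1 (0.02). BB2-162 exceeded BB2-282 in PLIN2 by 0.28 ± 0.09 (adjusted p = 0.0258). That call ended after median centring (adjusted p = 0.1), in a fit of the 2 groups alone (0.0804), and without BB2-162 replicate 1 (0.0746), BB2-282 replicate 1 (0.0689) or BB2-282 replicate 3 (0.0796). BB2-125 lay above BB2-282 by 0.24 ± 0.09, which did not pass (adjusted p = 0.054). It passed with a stricter filter on dim genes (0.0413), with 16 added (0.0308), in a fit of the 2 groups alone (0.0394), and without BB2-162 replicate 1 (0.0322) or 2 (0.0481). PNPLA2 passed in no pair, with differences of 0.07, -0.05 and -0.12 and 95% intervals within -0.33 to 0.27.

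Levels of ABHD5 with BB2-282 were below those with BB2-125 by 0.29 ± 0.11 (adjusted p = 0.0385) and those with BB2-162 by 0.33 ± 0.11 (adjusted p = 0.0213). The BB2-125 call ended after median centring (0.0545) and without BB2-125 replicate 1 (0.0884) or 3 (0.168) or any one BB2-282 replicate (0.062, 0.159 and 0.0537). The BB2-162 call ended after median centring (0.068) and without BB2-162 replicate 3 (0.0583) or BB2-282 replicate 2 (0.0984). DGAT2 was higher with BB2-162 than with BB2-282 by 0.43 ± 0.13 (adjusted p = 0.0141), with 1 array in the range of the other group. That call ended without BB2-162 replicate 2 (0.0634) or 3 (0.0747) or BB2-282 replicate 2 (0.0696) or 3 (0.053).

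DGAT1 was higher with BB2-125 than with BB2-282 by 0.28 ± 0.09 (adjusted p = 0.0235). The call ended without BB2-125 replicate 2 (0.0828) or 3 (0.0859) or any one BB2-282 replicate (0.054, 0.0557 and 0.0693). Leaving out BB2-162 replicate 1 added calls, over all genes tested as well as among the 10. Without it DGAT1 (0.29, adjusted p = 0.0216), DGAT2 (-0.37, adjusted p = 0.0194) and LIPE (-0.33, adjusted p = 0.0235) passed between BB2-125 and BB2-162, and LIPE passed between BB2-162 and BB2-282 (0.29, adjusted p = 0.0385). With that array included they were 0.23, -0.22, -0.23 and 0.19 and did not pass. DGAT1 between BB2-125 and BB2-162 also passed after median centring (0.0366) and with 16 added (0.0478).

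**Figure D3:**
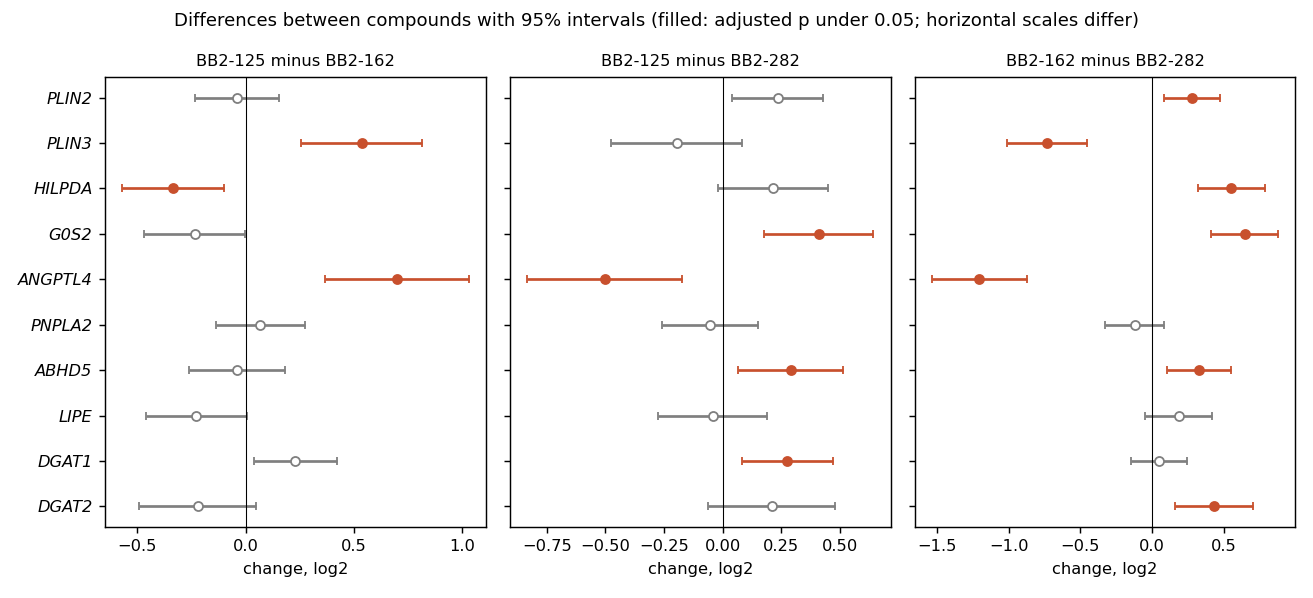
Log2 difference between compounds at 10 µM (horizontal axis, scale differing between panels) for the 10 genes in the 3 pairs. Points are limma estimates from 3 arrays per group, bars are 95% intervals and filled points passed an adjusted p of 0.05. ANGPTL4 is filled in all 3 pairs, PNPLA2 and LIPE in none.

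Across all 100 combinations of gene and comparison 57 were called. None of the 57 changed direction under any alternative, 41 were called under all of them and 16 were lost under at least 1. Many alternatives could not change a direction, because they leave the estimate itself unchanged. Among these are the filters on dim genes, the fit of 2 groups alone, the replicate block and leaving out an array of another group. Of the 43 not called, 7 passed under at least 1 alternative.

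The genes nearest in pattern were found by the root mean square distance between the 5 group means, after each gene's own mean was taken off, over all genes tested. PLIN2 and HILPDA were among each other's 3 nearest, at 0.13, and both had ADM (adrenomedullin, a peptide hormone) and HK2 (hexokinase) as their other near genes. ADM lay 0.08 from HILPDA and 0.17 from PLIN2, and HK2 lay 0.18 from each. ADM had means of 8.77 in normoxia, 12.40 in hypoxic vehicle, 12.62 with BB2-125, 13.00 with BB2-162 and 12.22 with BB2-282, so it too was highest with BB2-162. In these unscaled distances ANGPTL4 had no gene as near. Its nearest were CDCP1 (0.42), STC2 (0.46) and NDRG1 (0.48), and its distance to PLIN2 was 0.72. CDCP1, a membrane glycoprotein gene, went from 6.27 to 10.39 in hypoxia and to 9.58, 9.60 and 10.90 with BB2-125, BB2-162 and BB2-282. For G0S2 the nearest were ZNF267 (0.06), GPR3 (0.07) and FAM209B (0.07). ZNF267, a zinc finger gene, had means of 6.91, 7.22, 7.79, 8.19 and 7.51 in the same group order as ADM. The distances rest on 5 means that share arrays and are a description. They were not scaled to the size of a gene's changes, so they grow with it and do not compare shape alone. ANGPTL4 had the largest hypoxic rise of all genes tested (5.08), while G0S2 differed by 0.22 in hypoxia.

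Around the 10 genes, 5 lists of the same pathway held 101 other genes, of which 78 were tested. Of all genes tested, 57.5% were called in hypoxia (28.2% higher and 29.4% lower), 28.4% with BB2-125, 36.1% with BB2-162 and 13.6% with BB2-282. Among 15 droplet coat and biogenesis genes, 6 rose and 5 fell in hypoxia (median -0.01, beside 0.09 over all genes). LDAF1, the seipin partner that marks where droplets form, rose by 2.28 ± 0.10, and LPCAT1, a droplet-bound phosphatidylcholine enzyme, rose by 1.11 ± 0.09. FITM2, which helps droplets bud, fell by 1.54 ± 0.11, and NSDHL, a sterol enzyme found on droplets, fell by 1.44 ± 0.11. LPCAT1 then fell with BB2-125 by 1.28 ± 0.09 and with BB2-162 by 0.69 ± 0.09, whereas LDAF1 rose a little further with BB2-125 (0.39 ± 0.10). CAV1, the caveolin gene, fell with BB2-162 (-1.02 ± 0.18), as did HSD17B11 (-1.07 ± 0.16), a droplet-bound dehydrogenase. NSDHL rose by 0.998 ± 0.11 and RAB18, a droplet GTPase gene, fell by 0.77 ± 0.16 with BB2-125. With BB2-282, PCYT1A, the rate-limiting enzyme of phosphatidylcholine synthesis, rose by 0.57 ± 0.09. In all, 3 rose and 4 fell with BB2-125, 2 and 4 with BB2-162, and 1 and 2 with BB2-282, with medians of 0.03, -0.05 and -0.10 beside 0.02, 0.06 and 0.02 over all genes. The share of this list called was 73.3% in hypoxia, beside 57.5% of all genes, and 46.7%, 40% and 20% with the compounds, beside 28.4%, 36.1% and 13.6%.

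Of 14 other genes of triglyceride and sterol ester synthesis, 4 rose and 5 fell in hypoxia (median 0.14). SOAT1, the cholesterol acyltransferase, fell by 2.30 ± 0.12, and GPAM, the mitochondrial glycerol-phosphate acyltransferase of the first step, fell by 1.87 ± 0.15. LPIN2, a phosphatidate phosphatase, rose by 1.02 ± 0.11, and AGPAT4 rose by 0.60 ± 0.10. None rose and 5 fell with BB2-125 (median -0.14), 1 rose and 5 fell with BB2-162 (-0.07), and 3 rose and none fell with BB2-282 (0.10). GPAT4, which supplies droplets with lysophosphatidate, fell by 0.75 ± 0.11 with BB2-125 and by 0.66 ± 0.11 with BB2-162 and rose by 0.68 ± 0.11 with BB2-282. AGPAT5 fell with BB2-125 (-0.61 ± 0.10) and BB2-162 (-0.87 ± 0.10), AGPAT2 with BB2-162 (-0.95 ± 0.11), and SOAT2 rose with BB2-162 (0.38 ± 0.10). The share called was 64.3% in hypoxia, beside 57.5% of all genes, and 35.7%, 42.9% and 21.4% with BB2-125, BB2-162 and BB2-282, beside 28.4%, 36.1% and 13.6%.

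Of 18 lipases and cofactors, 4 rose and 7 fell in hypoxia (median -0.23). MGLL, which cleaves monoglyceride after LIPE, rose by 1.14 ± 0.09, and ANGPTL8, a partner of the angiopoietin-like lipase inhibitors, rose by 0.45 ± 0.11. LIPA, the lysosomal acid lipase, fell by 1.93 ± 0.16 and NCEH1, a cholesterol ester hydrolase, fell by 1.50 ± 0.14. BB2-125 raised 2 and lowered 3 (median -0.03). CES1, a carboxylesterase, rose by 2.34 ± 0.19 and LIPA by 0.69 ± 0.16 with it, while AADAC fell by 1.14 ± 0.16 and LMF1, the chaperone of lipoprotein lipase, by 0.54 ± 0.11. BB2-162 raised 3 and lowered 7 (median -0.04), with CES1 higher by 0.72 ± 0.19 and LIPH (-1.002 ± 0.20) and LMF1 (-0.99 ± 0.11) lower. BB2-282 raised 2, CES1 (0.93 ± 0.19) and MGLL (0.41 ± 0.09), and lowered 1 (median -0.03). MGLL went the other way with BB2-125 (-0.52 ± 0.09) and BB2-162 (-0.63 ± 0.09), both called. Of these genes 61.1% were called in hypoxia, beside 57.5% of all genes, and 27.8%, 55.6% and 16.7% with BB2-125, BB2-162 and BB2-282, beside 28.4%, 36.1% and 13.6%.

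Of 13 genes of fatty acid uptake, binding and activation, 4 rose and 4 fell in hypoxia (median 0.03). LRP1, a lipoprotein receptor, rose by 3.21 ± 0.17, and VLDLR, the very-low-density lipoprotein receptor, rose by 0.63 ± 0.12. SLC27A2, a fatty acid transporter, fell by 2.51 ± 0.21 and ACSL1, an acyl-CoA synthetase, fell by 1.53 ± 0.12. LRP1 fell with BB2-125 (-1.73 ± 0.17) and BB2-162 (-1.18 ± 0.17). ACSL5, another acyl-CoA synthetase, fell with BB2-125 (-1.69 ± 0.16), with BB2-162 (-0.92 ± 0.16) and with BB2-282 (-0.82 ± 0.16). SLC27A2 fell further with BB2-282 (-1.40 ± 0.21), and VLDLR rose with it (0.65 ± 0.12) but fell with BB2-125 (-0.52 ± 0.12). FABP6, a lipid binding protein gene, rose with BB2-125 (0.44 ± 0.11). The counts higher and lower were 2 and 3 with BB2-125, 2 and 4 with BB2-162, and 1 and 2 with BB2-282, with medians of -0.16, -0.07 and 0.08. Called were 61.5% of the list in hypoxia, beside 57.5% of all genes, and 38.5%, 46.2% and 23.1% with the compounds in that order, beside 28.4%, 36.1% and 13.6%.

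Of 18 transcription factors and cofactors of lipid storage, 9 rose and 3 fell in hypoxia (median 0.22). PPARD, a fatty acid receptor of which ANGPTL4 is a known target, rose by 2.31 ± 0.12, and CEBPB rose by 1.80 ± 0.09. PPARGC1A, a coactivator of oxidative genes, fell by 1.98 ± 0.17, and SREBF1, the regulator of fatty acid synthesis, fell by 0.76 ± 0.09. With BB2-125, 2 rose and 7 fell (median -0.03), among them PPARD (-0.89 ± 0.12), PPARA (-0.83 ± 0.12) and PPARGC1A (-1.13 ± 0.17) as falls and PPARG (0.43 ± 0.12), the adipocyte receptor, as a rise. With BB2-162, 6 rose and 4 fell (median -0.04), with CEBPB (0.83 ± 0.09) and CEBPA (0.54 ± 0.11) higher and PPARA (-0.71 ± 0.12), the liver fatty acid receptor, again lower. PPARD with BB2-162 did not pass (-0.11 ± 0.12, adjusted p = 0.463). With BB2-282, 2 rose and 4 fell (median 0.10), with SREBF2 (0.56 ± 0.11) higher and PPARGC1A (-1.48 ± 0.17) and CEBPB (-0.43 ± 0.09) lower. The share of these genes called was 66.7% in hypoxia, beside 57.5% of all genes, and 50%, 55.6% and 33.3% with BB2-125, BB2-162 and BB2-282, beside 28.4%, 36.1% and 13.6%.

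Of the 106 calls of list genes named by the rule over these 4 comparisons, 81 held under all alternatives and 25 were lost under at least 1. Among the lost were FITM1 in hypoxia (0.34 ± 0.13) and with BB2-162 (0.36 ± 0.13), CIDEA with BB2-125 and BB2-162 (0.32 ± 0.10 each), AUP1 with BB2-282 (-0.36 ± 0.10), GPAM with BB2-282 (0.46 ± 0.15), DBI with BB2-125 (0.56 ± 0.21), and MLX with BB2-162 (-0.41 ± 0.13) and BB2-282 (-0.55 ± 0.13).

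**Figure D4:**
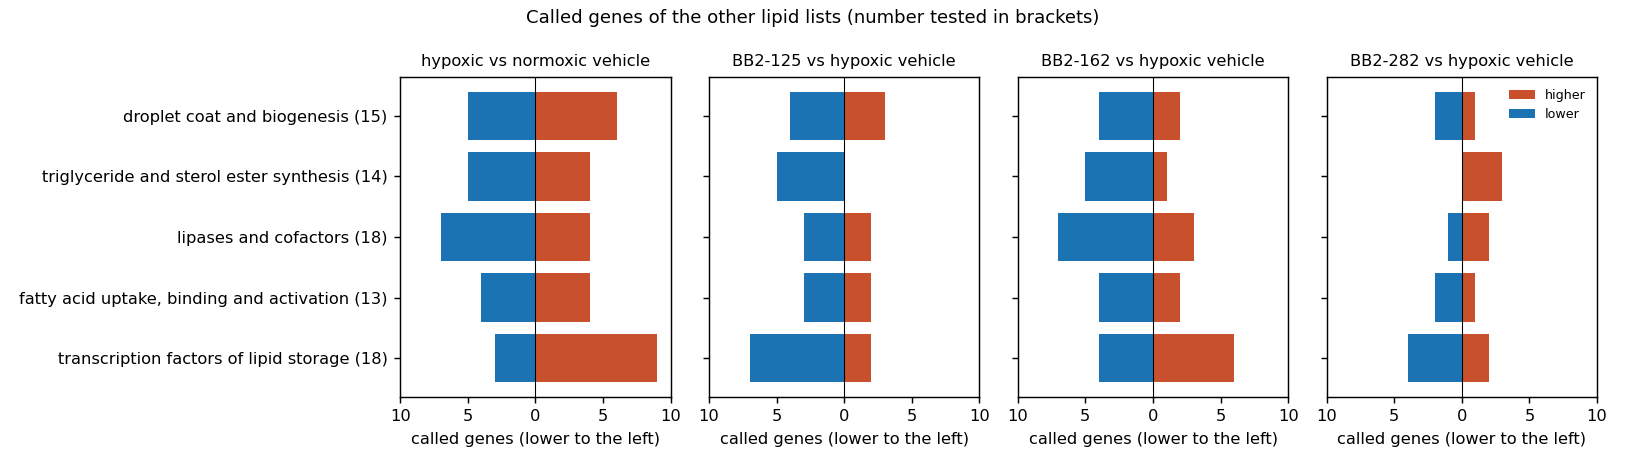
Numbers of called genes (horizontal axis, lower to the left and higher to the right of 0) in 5 lists of lipid genes that leave out the 10 members, with the number tested in brackets, for hypoxic against normoxic vehicle and each compound against hypoxic vehicle. Transcription factors gave 9 higher and 3 lower of 18 in hypoxia and 2 higher and 7 lower with BB2-125. Triglyceride and sterol ester synthesis gave 0 higher and 5 lower of 14 with BB2-125 and 3 higher and 0 lower with BB2-282. Of all genes, 28.2% were called higher and 29.4% lower in hypoxia, 13.3% and 15% with BB2-125, and 5.65% and 7.94% with BB2-282.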

How the data were processed

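Total RNA of 15 A549 cultures was labelled with a whole-transcript kit and hybridised to Affymetrix arrays, per the labels' protocols. The deposited values are intensities per probe set on the linear scale, from RMA per the submitters' processing notes. The software, its version and the genome build are not given in the sources used here. The file held 28869 probe sets, of which 19310 had 1 gene symbol, 1752 several and 7807 none. Log2 was taken here, and genes had to exceed their array's 25th percentile on at least 3 arrays. All 15 arrays were fitted with limma 3.58.1 in R 4.3.3 as 5 group means (10 residual and 7.96 prior degrees of freedom), with Benjamini-Hochberg adjustment within each of 10 comparisons, and the script was tested on simulated data. The number of arrays limits the precision. No pair of arrays was identical.

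The 10 genes, the lists and the alternatives were chosen with earlier results of these data known. The genes named beside the 10 are up to 2 called genes with the largest rise and up to 2 with the largest fall per list and comparison, the 3 nearest in pattern to PLIN2, HILPDA, ANGPTL4 and G0S2, and VEGFA and SLC2A1. Promoter letters are from RefSeq on GRCh38.p14. Replicate numbers were checked as a pairing by correlating deviations from the group means. For hypoxic vehicle and BB2-125 every same-number correlation was over 0.1 (0.33, 0.29 and 0.19). A fit of all groups with the replicate number as a block kept all 3 calls of the 10 genes for that comparison. The block was shared with groups whose numbers were not taken as pairs. A paired fit of hypoxic vehicle and BB2-125 alone was not made.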

Additional observations from a re-analysis of the deposited data

Results flagged for a closer look

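The effect of 1 compound differed from that of another, by limma's test of the difference itself, in 14 combinations of gene and pair. Differences are in log2 units, the first compound minus the second. In ANGPTL4 they were 0.70 (BB2-125 minus BB2-162), -0.50 (BB2-125 minus BB2-282) and -1.20 (BB2-162 minus BB2-282). In PLIN3 they were 0.54 (BB2-125 minus BB2-162) and -0.73 (BB2-162 minus BB2-282), and in HILPDA -0.34 and 0.55 for the same pairs. In G0S2 they were 0.41 (BB2-125 minus BB2-282) and 0.64 (BB2-162 minus BB2-282), and in ABHD5 0.29 and 0.33 for those pairs. In PLIN2 and DGAT2 BB2-162 minus BB2-282 gave 0.28 and 0.43, and in DGAT1 BB2-125 minus BB2-282 gave 0.28.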

How the results depend on the processing

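The results were computed under 25 other settings for comparisons with a vehicle and 26 for pairs of compounds; the cause of the changes below was not tested. Median centring turned the sign of LIPE in hypoxia (-0.0207), of ABHD5 and PLIN2 between BB2-125 and BB2-162 (0.0116 and 0.0099) and of DGAT1 between BB2-162 and BB2-282 (-0.0124). It moved the median of all genes for BB2-162 against normoxia by -0.111, from 0.139 to 0.028, and the higher share of called genes from 43.4% to 28.2% for BB2-162 against hypoxic vehicle, from 63.9% to 74.4% for BB2-125 against BB2-162 and from 43.4% to 32.9% for BB2-162 against BB2-282. Quantile normalisation turned PNPLA2 with BB2-162 (0.119), HILPDA with BB2-282 (0.0542), PLIN3 with BB2-125 against normoxia (0.022) and PNPLA2 between BB2-125 and BB2-162 (-0.0737). Leaving out 1 array turned signs within these ranges: LIPE in hypoxia -0.0708 to 0.0684; against hypoxic vehicle ABHD5 (-0.0326 to 0.141) and DGAT1 (-0.0625 to 0.0357) with BB2-125, PNPLA2 with BB2-162 (-0.0857 to 0.0599), DGAT2 (-0.115 to 0.0373) and PLIN3 (-0.132 to 0.0012) with BB2-282; PLIN3 with BB2-282 against normoxia (-0.0168 to 0.125). Between BB2-125 and BB2-162 they were -0.102 to 0.0294 for ABHD5, -0.0958 to 0.0236 for PLIN2 and -0.0046 to 0.141 for PNPLA2, between BB2-125 and BB2-282 -0.0897 to 0.0251 for LIPE and -0.0967 to 0.0049 for PNPLA2, and between BB2-162 and BB2-282 -0.0153 to 0.0941 for DGAT1. None of these was called under any setting.

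Of the 10 genes, BB2-282 against hypoxic vehicle called 1. It called 0 after quantile normalisation or with the replicate block, 2 with a stricter dim filter, with 16 added before log2 or in a fit of the 2 groups alone, and 0 to 2 when 1 array was left out. BB2-162 against hypoxic vehicle called 8, then 5 in a fit of the 2 groups alone and 5 to 8 with 1 array left out. Among all genes its 5780 calls became 3494 in the fit of 2 groups, of which 32.3% were higher. BB2-125 against BB2-162 went from 4182 to 2582 there, and to 2645 to 6208 with 1 array left out; its 3 calls among the 10 genes ran from 2 to 5, with 5 without BB2-162 replicate 1. The lowest count of all genes with 1 array left out, 2645, was without BB2-162 replicate 3, and the highest, 6208, was without BB2-162 replicate 1. BB2-125 against BB2-282 called 1 to 5 of the 10 with 1 array left out, for 4 with every array. BB2-282 against hypoxic vehicle called 1222 to 2767 of all genes, for 2176 with every array, and was lowest without hypoxic vehicle replicate 1 (1222) or 2 (1352) or BB2-282 replicate 2 (1258).

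Apart from hypoxic vehicle and BB2-125, same-number correlations ran from -0.429 to 0.580, so the numbers were not taken as pairs. With the replicate block 5 calls of the 10 genes were lost, at adjusted p = 0.0506 for LIPE and 0.0542 for DGAT1 with BB2-162, 0.0527 for DGAT1 with BB2-282, 0.0506 for ABHD5 between BB2-125 and BB2-282 and 0.0542 for ABHD5 with BB2-162 against normoxia; no other call of the 10 genes changed. The number of arrays limits what can be separated. The 16 calls of the 10 genes that were lost under at least 1 setting had changes of 0.24 to 0.50 in size on the log2 scale. None of the 57 calls turned direction, but many settings leave the estimate unchanged and could not have turned it.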
